A study of Oidiodendron maius Zn with 6 samples.

Results

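The 86 gene models described here were the transcripts of Oidiodendron maius Zn whose levels were highest in mycelium grown with glucose and at least 2-fold lower both with peat and with bovine serum albumin (BSA). They were drawn from 16703 gene models, of which 8251 reached 20 CPM (gene reads of a model per 1000000 gene reads) in glucose. Reads were summed over both libraries of an amendment, and CPM in peat and BSA were rescaled so that the median ratio to glucose was 1 over models with at least 20 CPM in all 3 amendments. A member had at least 20 CPM in glucose, and its CPM plus 0.5 was at least 2 times that in peat and at least 2 times that in BSA. The members were thus chosen by their total gene reads in all 6 libraries, and the same reads supply every level below, so the folds against glucose are a description and carry no test.

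Free-living mycelium of this single strain was grown without a host for 45 days on cellulose membranes laid over agar plates (modified Melin-Norkrans medium, pH 4.7). The plates were amended with peat (approximately 10 g dry weight), with BSA (0.1 g per L) or with glucose (1 g per L), so that what was added and how much of it differed jointly between plates, and these cannot be told apart. The medium recipe in the labels lists glucose and ammonium phosphate in the medium itself. No source used here says whether peat and BSA plates held them. The glucose libraries carry the code NH4 in their titles. Each amendment had 1 paired-read and 1 single-read library of 75 bp reads.

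Oidiodendron maius is an ascomycete that forms ericoid mycorrhiza with plants of the heather family and also lives as a saprotroph in acid organic soils. Such fungi take up glucose directly, while protein and peat have to be broken down outside the hypha by secreted peptidases and by enzymes that attack plant polymers. In ascomycetes generally, glucose is a preferred carbon source, and its presence lowers transcription of many genes for the use of other carbon sources while supporting genes for sugar uptake and glycolysis. The files give no names or products for the protein IDs, so neither role nor pathway can be stated for any member, and the gene lists drawn up by product name could not be filled.

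The single-read libraries held 20008329 to 24690601 gene reads and the paired-read libraries 893061 to 1043870. A profile of the same amendment in both layouts differed by little more than sampling noise: with the layout effect shared by all amendments taken out, the chi-square statistic per degree of freedom was 1.06 over 10372 models, and 0.837 over the 80 members with enough reads. It was 32 and 40.2 when layouts of different amendments were matched. The 2 libraries of an amendment were therefore counted as 1 sample, and no label says if separate cultures were used. No difference below has a replicate check, and intervals cover counting error only.

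Per length, the members lay above the median transcript in glucose and below it in peat and BSA. In the single-read libraries their median RPKM, as deposited by the authors, was 19.9 in peat, 23.3 in BSA and 70.3 in glucose, against 41.7 in peat, 39 in BSA and 44.2 in glucose over the 8251 models that reached 20 CPM in glucose. On the CPM scale, which is not per length, their median level was 18.5 CPM in peat, 20.7 CPM in BSA and 53.7 CPM in glucose. Over the 8251 models the CPM medians were 60.6 CPM in peat, 61.7 CPM in BSA and 61.2 CPM in glucose. Among the members, 22 had at least 100 CPM in glucose, 25 had 50 to 100 CPM and 39 had less than 50 CPM. Every member was still detected in the other amendments, with at least 122 reads in peat and at least 54 reads in BSA, so each fold is a ratio between measured levels. CPM are shares of a library, so a lower level means a smaller share of the gene reads and gives no amount of RNA per mycelium.

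**Figure D1:**
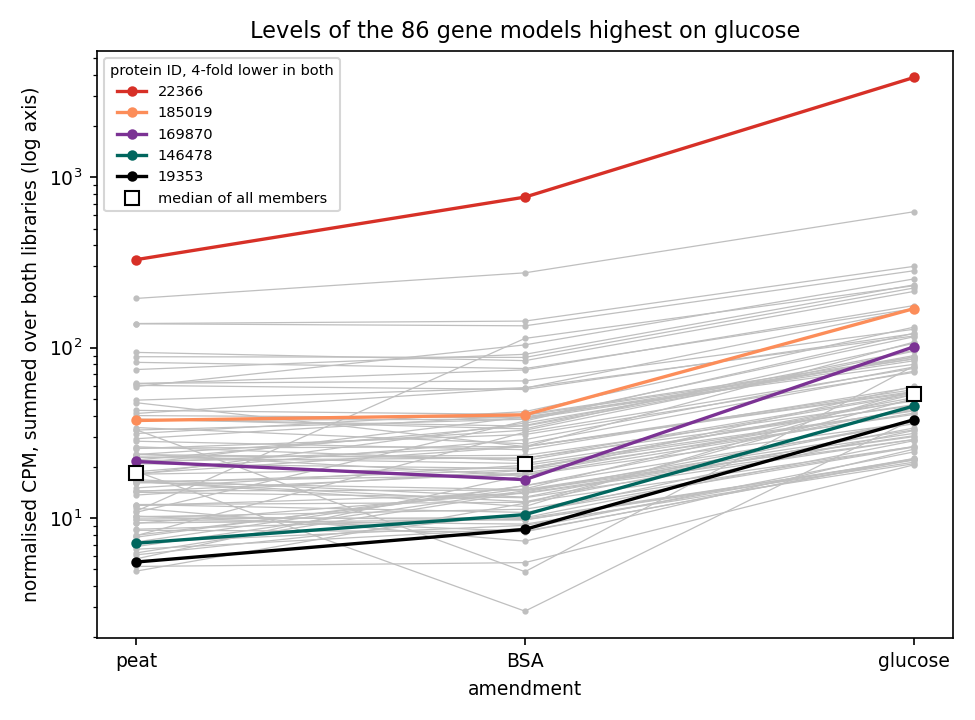
Normalised CPM (log axis) of the 86 members in peat, BSA and glucose, 1 grey line per model, with the 5 models at least 4-fold lower in both peat and BSA in colour. White squares mark the medians of 18.5, 20.7 and 53.7 CPM, and protein ID 22366 stands above all other members in each amendment.

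Together the members took 0.269% of the gene reads in peat (95% exact interval 0.267 to 0.271), 0.329% in BSA (0.326 to 0.331) and 1.1% in glucose (1.1 to 1.11). In the paired-read libraries alone the shares were 0.257% in peat, 0.317% in BSA and 1.04% in glucose. A single model supplied much of the glucose share. Protein ID 22366 held 35% of the members' glucose reads, and the 10 most abundant members held 58%. Without 22366, the other members took 0.237% of the reads in peat, 0.259% in BSA and 0.717% in glucose.

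Protein ID 22366 (645 nt) was the most abundant member by CPM and per length. Folds given with an interval are ratios of the summed normalised reads, without the added 0.5 CPM. It had 308 and 329 CPM in the paired-read and single-read peat libraries, 646 and 770 CPM in those of BSA, and 3411 and 3874 CPM in those of glucose. All peat and BSA values lay far below both glucose values, and both peat values lay below both BSA values. Its level was 11.7-fold lower in peat than in glucose (interval 11.5 to 12) and 5.04-fold lower in BSA than in glucose (4.95 to 5.13). By CPM it ranked 452nd in peat, 136th in BSA and 6th in glucose among all models. The RPKM deposited by the authors, which is per length, was 495 in the peat, 1082 in the BSA and 6006 in the glucose single-read library, where the next member by RPKM had 815.

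Levels at least 4-fold lower in both peat and BSA were found for 5 members (0.0606% of the 8251 models), of which 22366 was one. Protein ID 185019 (1295 nt) had 42.4 and 37.2 CPM in peat, 33.4 and 40.7 CPM in BSA, and 190 and 169 CPM in glucose. It was 4.54-fold lower in peat (4.22 to 4.88) and lower by 4.2-fold in BSA (3.89 to 4.55), and its peat and BSA values overlapped. Protein ID 169870 (1174 nt) had 12.8 and 21.9 CPM in peat, 11.9 and 17 CPM in BSA, and 92.8 and 102 CPM in glucose. It was 4.71-fold lower in peat (4.29 to 5.18) and 6.02-fold lower in BSA (5.36 to 6.79). Its ratio of peat to BSA was 1.28 by summed reads and 1.07 from the paired-read libraries alone. Without the peat single-read library it was 0.76, which sets a paired-read peat value against mostly single-read BSA reads. Without the BSA single-read library it was 1.8, which sets mostly single-read peat reads against a paired-read BSA value. The log2 ratio of peat to glucose was -2.21, and -2.94 without the peat single-read library, which also mixes layouts.

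The other two members of this group had low levels outside glucose. Protein ID 146478 (838 nt) had 11.8 and 6.92 CPM in peat, 10.7 and 10.5 CPM in BSA, and 46.4 and 45.5 CPM in glucose. It was 6.39-fold lower in peat (5.44 to 7.53) and 4.34-fold lower in BSA (3.73 to 5.07). Its log2 ratio of peat to glucose was -2.59, and -1.91 without the peat single-read library. The latter value comes from 12 paired-read peat reads and mixes layouts. Protein ID 19353 (484 nt) had 3.94 and 5.59 CPM in peat, 10.7 and 8.49 CPM in BSA, and 37.1 and 37.9 CPM in glucose. It was 6.84-fold lower in peat (5.71 to 8.25) and 4.4-fold lower in BSA (3.72 to 5.24). Both peat values lay below both BSA values, but the paired-read values came from only 4 reads in peat and 9 in BSA.

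Of the other 9 most abundant members by CPM, 7 were less than 4-fold lower in either amendment at levels of 177 to 628 CPM in glucose. Protein ID 20351 (769 nt), the next most abundant, had 188 and 195 CPM in peat, 289 and 274 CPM in BSA, and 656 and 627 CPM in glucose. It was 3.23-fold lower in peat (3.12 to 3.33) and 2.28-fold lower in BSA (2.21 to 2.36). By summed reads, 147889 (1011 nt) had 139 CPM in peat, 143 CPM in BSA and 300.3 CPM in glucose, and 21254 (385 nt) had 138 CPM in peat, 134 CPM in BSA and 283 CPM in glucose. Both lay close to the 2-fold limit in both amendments. Protein ID 19887 (910 nt) was 3.14-fold lower in peat and 2.56-fold lower in BSA, and protein ID 19733 (836 nt) was 2.88-fold and 2.39-fold lower in the same order.

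A short model among these 9 gave less even values between layouts. Protein ID 29099 (357 nt) had 60.1 and 89.7 CPM in peat, 51.4 and 89.3 CPM in BSA, and 168 and 227 CPM in glucose, with the paired-read value the lower one each time. It was 2.53-fold lower in peat (2.41 to 2.66) and 2.55-fold lower in BSA (2.42 to 2.7). Its log2 ratio of BSA to glucose was -1.35, and -1.7 from the paired-read libraries alone. Without the BSA single-read library it was -2.12, which sets a paired-read BSA value against mostly single-read glucose reads. Without the glucose single-read library it was -0.934, under 2-fold, which mixes layouts the other way. Protein ID 18374 (515 nt) had 93.9 CPM in peat, 84 CPM in BSA and 214 CPM in glucose.

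The remaining 2 of these 9 were low in peat in particular. Protein ID 143769 (695 nt) had 61.1 and 59.1 CPM in peat, 106 and 104 CPM in BSA, and 284 and 252 CPM in glucose. It was 4.28-fold lower in peat (4.04 to 4.53) and 2.44-fold lower in BSA (2.32 to 2.57). The other, 56413 (936 nt), had 6.9 and 11.1 CPM in peat, 128 and 113 CPM in BSA, and 235 and 231 CPM in glucose. It was 21.1-fold lower in peat (18.7 to 23.9), the largest fold among the members, but only 2.04-fold lower in BSA (1.94 to 2.14), where the interval included the limit of the rule. Without the peat single-read library its log2 ratio of peat to glucose was -4.97 in place of -4.34. The former value comes from 7 paired-read peat reads and mixes layouts.

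Most members were less than 4-fold lower in both comparisons. By the ratio of the rule, with 0.5 CPM added, the fold lower in peat had a median of 2.56 and ran from 2 to 20.2, and the fold lower in BSA had a median of 2.38 and ran from 2 to 14.7. The smaller of both folds was below 2.2 in 42 members, from 2.2 to below 4 in 39 and at least 4 in 5. Folds of at least 4 were found in peat alone for 17 members, in BSA alone for 4 and in neither for 60. The 17 members that were 4-fold lower in peat alone had medians of 7.93 CPM in peat, 28.9 CPM in BSA and 75.7 CPM in glucose.

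**Figure D2:**
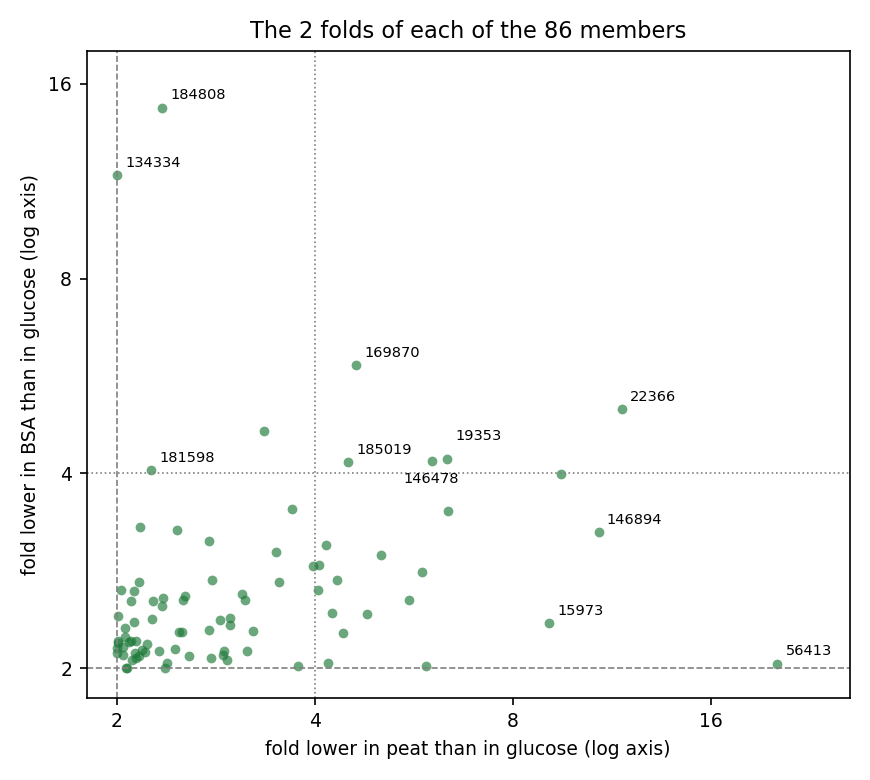
Fold lower in peat (x axis) and in BSA (y axis) than in glucose for each of the 86 members, both on log axes and with 0.5 CPM added. Dashed lines mark the 2-fold limit that chose the members and dotted lines mark 4-fold. Most points sit in the lower left corner, 5 lie beyond 4-fold on both axes, and the extremes on the 2 axes are different models.

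As a background, 3.6% of the 8251 models were at least 2-fold lower in peat than in glucose (297 models) and 3.36% were at least 2-fold lower in BSA (277 models). The 86 members, 1.04% of the 8251, are the models on both lists. They make up 29% of the peat list and 31% of the BSA list. Both comparisons use the same glucose libraries, so nothing is read from this overlap. Another 211 models passed in peat alone and 191 in BSA alone.

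Models on either side of the limit hardly differed. Just inside it, protein ID 16448 had a smaller fold of 2.0018, 21180 of 2.0024 and 19807 of 2.003. Just outside it, protein ID 146645 had a smaller fold of 1.997, 39304 of 1.997 and 57016 of 1.994. Of the 86 members, 45 had counting intervals wholly above 2-fold in both comparisons. Below the limit of 20 CPM in glucose, a further 169 models passed both folds, 47 of them with at least 10 CPM.

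Between peat and BSA the rule fixed no direction, and the members were on the whole close to each other. The log2 ratio of peat to BSA had a median of -0.11 over the members and -0.02 over the 8251 models. Of the members, 55 (64%) were lower in peat than in BSA by any size, against 53.6% of the 8251 models. In 75 members peat and BSA lay within 2-fold. At least 2-fold lower in peat than in BSA were 9 members (10.5%, against 2.87% of the 8251 models), and 2 were higher by the same factor (2.33%, against 2.53%). The counting interval of the ratio lay below 1 in 38 members, above 1 in 14 and included 1 in 34. The same count over the 8251 models is not given here, so these numbers are not read as a trait of the members.

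The 9 members lower in peat than in BSA were all at least 4.19-fold lower in peat than in glucose and 2.02-fold to 5.03-fold lower in BSA than in glucose. For 56413 the level in peat was 10.3-fold lower than in BSA (9.11 to 11.8), and 16.5-fold lower when the peat single-read library was left out. The latter value rests on 7 paired-read peat reads. The model with protein ID 15973 (547 nt) had 4.93 and 8.01 CPM in peat, 32.2 and 31.9 CPM in BSA, and 75.3 and 75.7 CPM in glucose, and was 4.05-fold below its BSA level in peat (3.44 to 4.78 by counting). Without the peat single-read library it was 6.5-fold below its BSA level, and its log2 ratio of peat to glucose was -3.82 in place of -3.18. These values rest on 5 paired-read peat reads. They and the 16.5-fold of 56413 set a paired-read peat value against mostly single-read reads. Protein ID 146894 (666 nt) had 7.88 and 10.9 CPM in peat, 28.7 and 37.5 CPM in BSA, and 123 and 122 CPM in glucose. It was 3.44-fold below its BSA level in peat (2.98 to 3.97). With layouts mixed, it was 2.65-fold below without the BSA single-read library and 4.73-fold below without the peat one. In these models BSA held an intermediate level, and peat and BSA libraries did not overlap. The most abundant member, 22366, was also among the 9, at 2.33-fold below its BSA level (2.27 to 2.39). It was 2.09-fold below from the paired-read libraries alone. Without the BSA single-read library, which mixes layouts, it was 1.96-fold below and so under 2-fold.

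The 2 members whose peat level was 2-fold or more above the BSA level were both short. Protein ID 184808 (436 nt) had 32.5 and 33 CPM in peat, 3.58 and 4.9 CPM in BSA, and 60.9 and 79 CPM in glucose, and was 6.81-fold higher in peat than in BSA (5.49 to 8.54). The other, 134334 (387 nt), had 8.87 and 19.2 CPM in peat, 2.39 and 2.87 CPM in BSA, and 16.5 and 39.2 CPM in glucose, and was 6.61-fold higher in peat than in BSA (4.98 to 8.93), but 3.11-fold higher when the peat single-read library was left out. The 3.11-fold value rests on 9 paired-read peat reads and mixes layouts. For 134334 the single-read peat value exceeded the paired-read glucose value, so the groups overlapped. Within each layout its peat value lay below its glucose value, by 1.81-fold in the paired-read and 2.01-fold in the single-read libraries (0.5 CPM added). Its place among the members thus rests on the single-read libraries. Its log2 ratio of peat to glucose was -1, but 0.19 when the glucose single-read library was left out and -2.05 without the peat one. Both of these values set a paired-read value against mostly single-read reads. Its log2 ratio of BSA to glucose was -3.53, and -2.34 without the glucose single-read library. Next in order was protein ID 181598 (685 nt), with 47.6 CPM in peat, 26.3 CPM in BSA and 108 CPM in glucose, 1.81-fold higher in peat than in BSA (1.63 to 2.01).

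**Figure D3:**
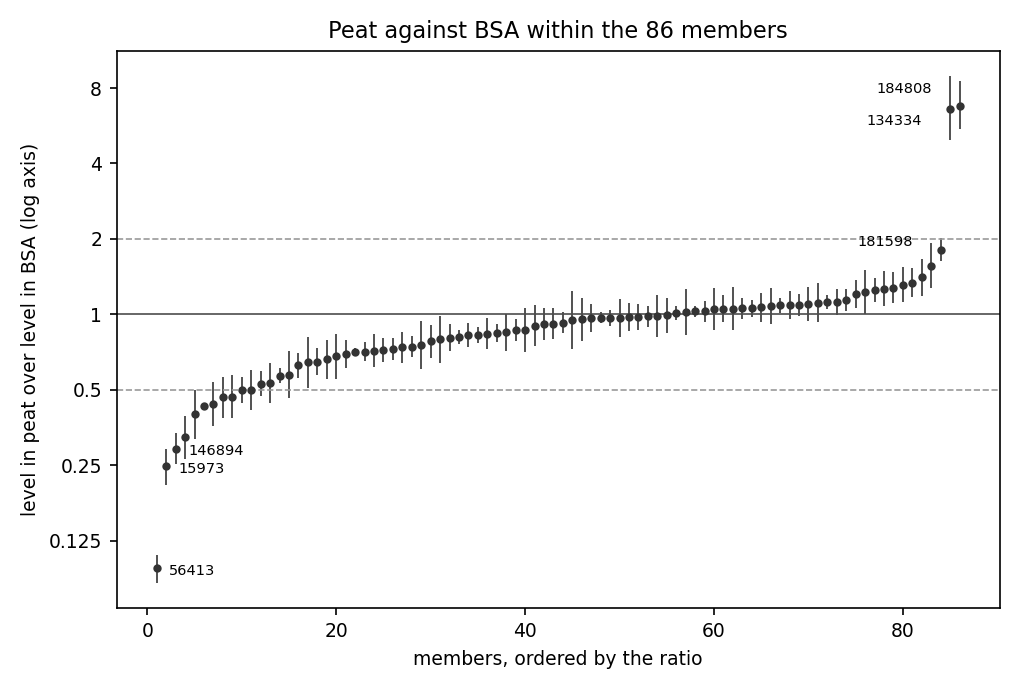
Ratio of the level in peat to the level in BSA (log axis) for the 86 members in order of the ratio, with exact 95% intervals that cover counting error only. Dashed lines mark ratios of 0.5 and 2. Most members lie between them, 56413 stands lowest, and 184808 and 134334 stand apart at the top.

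The edgeR quasi-likelihood test of peat against BSA over all models called 35 members lower in peat (40.7%, against 31% of the 8251 models) and 14 higher (16.3%, against 28.2%) at a Benjamini-Hochberg adjusted p under 0.05. With no replicate block it called 27 members lower (31.4%, against 15.6%) and 7 higher (8.14%, against 15.4%), and DESeq2 called 17 lower (19.8%, against 11%) and 3 higher (3.49%, against 10%). These fits enter the 2 libraries of an amendment as replicates although they count as 1 sample here, so the test speaks of these libraries and says nothing of the spread between cultures.

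The glucose libraries stood above the others for nearly all members in both layouts. In 84 of the 86 members the lower glucose library exceeded every peat and BSA library. The exceptions were 134334 and protein ID 16492 (539 nt), which was named after its values had been seen and had 9.85 and 9.34 CPM in peat, 17.9 and 9.42 CPM in BSA, and 15.5 and 21.6 CPM in glucose. Its paired-read values came from 10 reads in peat, 15 in BSA and 15 in glucose. In the paired-read libraries alone, 54 members passed 2-fold in both comparisons and 85 were lower in both. In the single-read libraries alone, 79 members passed and all 86 were lower in both. A member had a median of 17 reads in the peat, 16 in the BSA and 50.5 in the glucose paired-read library.

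**Figure D4:**
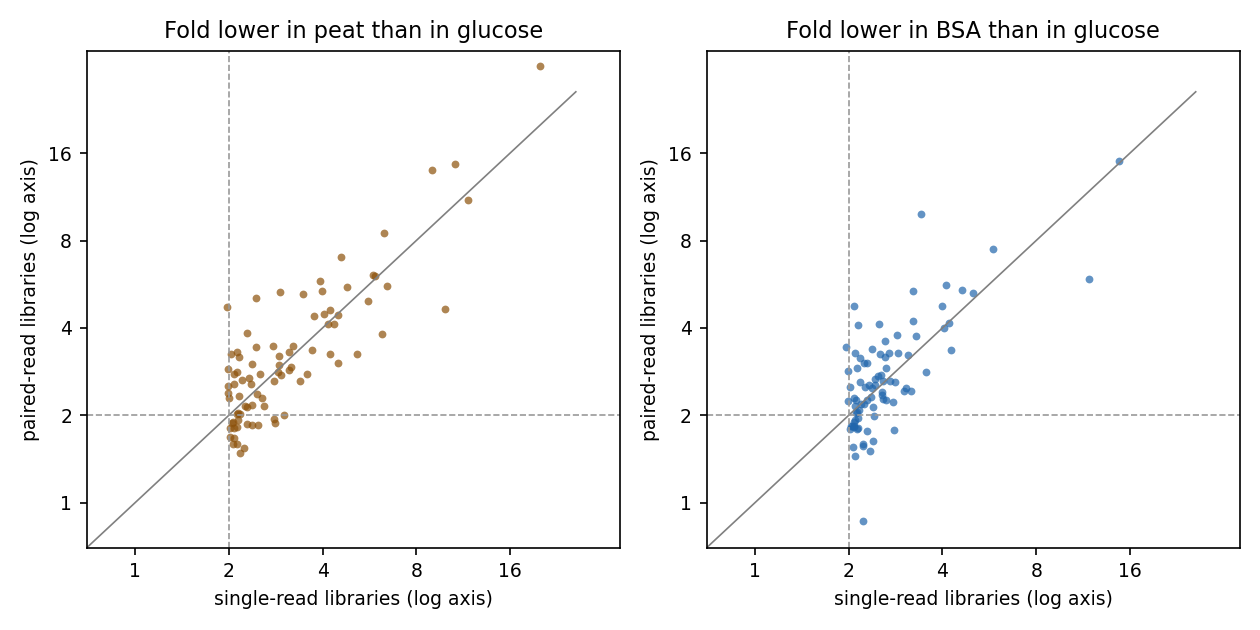
Fold lower in peat (left) and in BSA (right) than in glucose for the 86 members, with the single-read libraries on the x axis and the paired-read libraries on the y axis (log axes, 0.5 CPM added). The diagonal marks equal folds and dashed lines mark 2-fold. Points scatter on both sides of the diagonal over the whole range, and 1 point in the right panel, protein ID 16492, lies below 1 in the paired-read libraries.

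The members were short. Their gene models had a median length of 774 nt (162 to 2149), against 1425 nt over the 8251 models (150 to 15601). Of the members, 15 were up to 500 nt long (17.4%, against 3.98%), and 8 were longer than 1500 nt (9.3%, against 46.4%). With the 8251 models cut into 10 length classes of about equal size, the shortest class (150 to 656 nt) held 34 members, 4.11% of its 827 models, and the longest 2 classes (2226 nt and more) held 0. The 211 models 2-fold lower in peat alone had a median length of 1079 nt, and the 191 models 2-fold lower in BSA alone had one of 820 nt. Within the members, the median length was 810 nt where the smaller fold was below 2.2, 741 nt from 2.2 to below 4, and 838 nt in the 5 models beyond 4-fold.

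Length also moved with the ratios to glucose over all models. The median log2 ratio of the shortest class was -0.44 for peat over glucose and -0.51 for BSA over glucose, and that of the longest class was 0.37 for peat over glucose and 0.4 for BSA over glucose. In the paired-read libraries alone, the shortest class had -0.46 for peat and -0.58 for BSA, so the trend was present in both layouts. For peat over BSA, these classes had medians of 0.05 and -0.03. When the median log2 ratio of each length class was subtracted, with 10 classes set on the models at 20 CPM or more in all amendments, 31 of the 86 members still passed both folds and 55 did not. Of the 34 members in the shortest class, 6 still passed. The median length was 1107 nt for those that passed and 653 nt for those that did not, and 7 other models with a median length of 2197 nt came in.

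**Figure D5:**
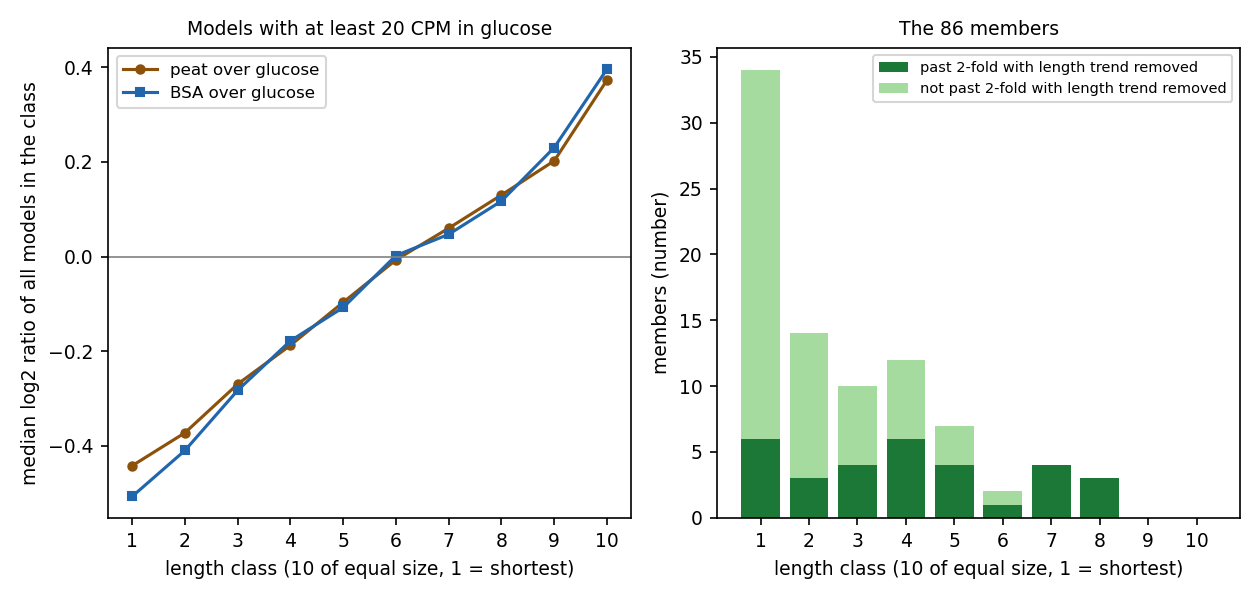
Left, median log2 ratio to glucose of the 8251 models that reached 20 CPM in glucose, by class of gene model length (10 classes, 1 is the shortest), for peat and for BSA. Right, number of the 86 members in each class, in dark green those that still passed 2-fold in both comparisons with the length trend removed (31 in all) and in light green those that did not (55).

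All 5 models at least 4-fold lower in both amendments remained past 2-fold with the length trend removed. The folds, with 0.5 CPM added, were then 8.77 in peat and 3.64 in BSA for 22366, 4.35 and 4.06 for 185019, 4.21 and 5.35 for 169870, 4.81 and 3.3 for 146478, and 4.76 and 3.05 for 19353, each time for peat and then BSA. Of the other 9 most abundant members, 19887 alone remained, with 2.68 in peat and 2.19 in BSA. Protein ID 146894 remained too, with 8.08 in peat and 2.35 in BSA. Protein ID 56413 stayed 17.3-fold lower in peat but was 1.75-fold lower in BSA, and 184808 stayed 10.6-fold lower in BSA but was 1.76-fold lower in peat.

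Reads that match more than 1 gene model hardly touched the members. Only unique reads were counted for 83 of the 86 (96.5%, against 98.4% of the 8251 models). In protein ID 19599 (574 nt) shared reads made up 63% of the reads in peat, 68.8% in BSA and 66.2% in glucose, so its level is uncertain. By unique reads alone it had 5.27 CPM in peat, 4.13 CPM in BSA and 9.82 CPM in glucose, below the 20 CPM that the rule asks for. The other models with shared reads, protein IDs 102037 and 73846, had at most 0.394% of them in any amendment.

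The members were scattered over the protein ID numbers. Only 1 pair was adjacent in the numeric order of all IDs, 19887 and 19888. Protein ID 19888 (938 nt) had 18.7 and 18.2 CPM in peat, 28.7 and 26.1 CPM in BSA, and 52.6 and 54.7 CPM in glucose. It was 2.99-fold lower in peat (2.68 to 3.34) and 2.08-fold lower in BSA (1.87 to 2.31). Both models of the pair were lowest in peat and intermediate in BSA. Per length, the deposited RPKM in the glucose single-read library was 257 for 19887 and 58.3 for 19888. The files give no positions, so whether the pair are neighbours in the genome is not stated.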

How the data were processed

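The deposited counts are unique gene reads and total gene reads per gene model of the Oidma1 annotation (JGI protein IDs), per the file headers. The deposited RPKM values are scaled by the authors to the total gene reads of each file: solving them for length returned a single whole number for every model, within 0.01 nt, for each of 90022 values above 0. Trimming, aligner, counter and treatment of mates are named by no source used here. No reference was used, so IDs have no names.

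Members were chosen on total gene reads by the stated rule (peat and BSA were divided by 0.97 and 0.907). CPM of single libraries were rescaled in the same way within a layout. Ratios of named members come from summed reads with exact (Clopper-Pearson) 95% intervals. The test of libraries was edgeR 4.0.16 (R 4.3.3, limma 3.58.1) with TMM factors, filterByExpr, amendment and read layout as terms, on 14497 models. Tested on simulated data with sampling noise alone, it recovered 200 of 200 models changed 1.5-fold between peat and BSA. There were 3 false calls (14354 simulated models tested). The changed models were drawn only from those with at least 20 CPM over all libraries pooled, so recovery of scarcer models was not tested. The layout marks a shared kind of library and served as the replicate block. Scripts used Python 3.11.15, scipy 1.17.1 and matplotlib 3.10.9. DESeq2 1.42.0 was an alternative.

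The members and lists were chosen with earlier results of these data known. Named are the members at least 4-fold lower in both amendments, the 10 most abundant in glucose, 3 models on each side of the 2-fold limit, the 3 highest and 3 lowest ratios of peat to BSA, the 3 with the lowest share of unique reads, and adjacent IDs.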

Additional observations from a re-analysis of the deposited data

How the results depend on the processing

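The number of members depended on the processing. It was 86 as reported, and 67 with TMM factors, 57 with RLE size factors and 120 with total reads only, which moved the median log2 ratio of BSA to glucose over the 8251 models to -0.19, against -0.05. It was 38 with the gene length trend removed (31 of the 86 kept), 159 from the paired-read libraries alone (51 kept), 133 and 47 with limits of 10 and 50 CPM in glucose, 255 with none, and 47 with 5 in place of 0.5 added to the CPM. Leaving out 1 library gave 81 to 109, the highest without the glucose single-read library (55 kept). Such a set mixes layouts. With the mean of library CPM it was 85, of which 60 were among the 86.

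The median log2 ratio of peat to BSA was -0.11 over the 86 members. Over the models chosen anew under each setting it was -0.22 with RLE size factors and 0.012 from the paired-read libraries alone. For such models it was -0.28 with the length trend removed and -0.23 with 5 added. Over the 86 members themselves it was -0.13 with RLE size factors and -0.25 from the paired-read libraries alone. With the length trend removed it was -0.11 over these members, for which the added constant was not varied. When 1 library was left out, models chosen anew gave medians from -0.33 (peat single-read library dropped) to 0.103 (BSA single-read library dropped). Over the 86 members themselves, the median stayed negative whichever library was dropped, from -0.377 to -0.107. It was -0.138 with the BSA single-read library dropped. The share of glucose reads was 1.1% in the 86 members, and the shares that follow are of the models chosen anew under each setting. It was 0.937% with TMM factors, 0.873% with RLE size factors, 1.86% with total reads only and 1.01% with the mean of library CPM. From the paired-read libraries alone it was 1.35%, and with the length trend removed 0.685%. With limits of 10, 50 and no CPM it was 1.17%, 0.973% and 1.22%, and with 5 added 0.904%. It was 1.08% to 1.52% when 1 library was left out, highest without the BSA single-read library.

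The edgeR test called 9006 models in peat against glucose, 9210 in BSA against glucose and 7095 in peat against BSA. DESeq2 called 3341, 3755 and 2120. With no replicate block, peat against BSA had 3932 calls. Leaving out 1 library gave 2626 to 9192 in peat against glucose, 2928 to 9194 in BSA against glucose and 1697 to 7181 in peat against BSA, lowest when a single-read library being compared was left out. In these fits an amendment left with 1 library is assumed to vary like the others, which supply the spread. The 26 named members had 728 log2 ratios to glucose under the alternatives. Of these, 635 stayed past 2-fold, 92 were under 2-fold in the same direction and 1 reversed. The 1 that reversed was 134334 in peat over glucose, at 0.19 without the glucose single-read library (range -2.05 to 0.19 when 1 library was left out). That value sets mostly single-read peat reads against paired-read glucose reads. The members were chosen for these ratios, so their direction could hardly change. No cause of any difference was tested. A level of 3 reads is about the upper 95% limit (1-sided) for a count of 0. It was 0.122 to 0.15 CPM in the single-read and 2.87 to 3.36 CPM in the paired-read libraries.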

Other observations

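Members were more frequent among models with low protein ID numbers, a split chosen after the values were seen. Of the 1058 models that reached 20 CPM in glucose and had an ID below 23000, 30 were members (2.84%), against 56 of the 7193 models with higher IDs (0.779%). The models with low IDs were also shorter, with a median of 764 nt against 1548 nt. Within the shortest of the 10 length classes the shares were 6.05% (21 of 347) for low IDs and 2.71% (13 of 480) for higher IDs. How the IDs were assigned is stated by no source used here.

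Short models were also counted less in the paired-read libraries. In the shortest length class, the median log2 ratio of paired-read to single-read CPM was -0.15 in glucose, against -0.02 in the longest class.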
